A study of Mus musculus with 2 samples.

Results

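The cells described here are GABAergic neuroblasts of the olfactory bulb type, chosen to have few or no transcripts of the division genes Mki67, Top2a and Cenpf. They were found in single-cell RNA-seq of newborn mouse telencephalon by their reads from the transcription factor genes Sp8, Sp9 and Etv1. Of 12846 cells kept from 2 libraries, 857 met the rule, 570 from WT and 287 from cKO. The rule used raw UMI counts (unique molecular identifiers, each counting 1 captured RNA molecule) of 22 genes in cells with at least 500 genes detected and at most 10% mitochondrial UMIs. A member had at least 2 UMIs over Dlx1, Dlx2, Dlx5 and Dlx6os1 and at least 3 UMIs over Sp8, Sp9 and Etv1. It had no Lhx6 UMI, fewer than 3 UMIs over Adarb2, Prox1, Npas1 and Htr3a, and fewer than 2 over Isl1, Ebf1, Tac1, Penk and Gucy1a3. It had at most 1 UMI over Neurod2 and Neurod6 and fewer than 3 over the division genes Mki67, Top2a and Cenpf. The cells were thus chosen by the measured counts of these 22 genes, whose levels are given as a description.

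Both libraries came from telencephalic tissue of C57BL/6 mice at P0, the day of birth, profiled on the droplet-based 10x Genomics platform. The labels name the tissue so, whereas the study's methods describe dissociated cerebral cortex. The WT library is the control, which the study also names by its floxed STING allele, and the cKO library has the genotype STINGf/f;Nestin-Cre. STING is the adaptor of the cytosolic DNA sensing pathway (gene symbol Tmem173 in these files), and the Nestin-Cre transgene drives recombination in neural progenitors and their descendants, not in microglia, which have another origin. Each group is 1 library, and the labels do not say how many pups entered it. Cells of 1 library are not replicates, so no test is given. Intervals are exact 95% intervals (Clopper-Pearson for shares, Poisson for levels, conditional binomial for ratios) and cover counting error only, and genotype, sex, dissection and library preparation cannot be told apart.

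Olfactory bulb interneurons are born in the lateral and dorsal ganglionic eminences and the subventricular zone. As neuroblasts they crawl along one another in chains through the rostral migratory stream before they spread into the granule and periglomerular layers of the bulb. Dlx factors act in the GABAergic lineages of the ventral telencephalon. Sp8 and Sp9, zinc finger factors of the Sp family, and Etv1 (also called Er81), an ETS factor, are markers of the olfactory bulb lineage but not of it alone. Lhx6 marks medial ganglionic eminence interneurons, Isl1 and Ebf1 mark striatal projection neurons, and Prox1 and Htr3a mark caudal ganglionic eminence interneurons.

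The libraries held 69554624 UMIs over 10715 barcodes (WT) and 67448785 UMIs over 9198 barcodes (cKO). After filtering, 6766 and 6080 cells remained, with medians of 6653 and 7629 UMIs. The neuroblasts were shallower than the average kept cell in both libraries, with medians of 4225 and 5352 UMIs and of 1868 and 2166 genes. The libraries shared 19 barcodes, none of them of a neuroblast. Tmem173 had no UMI in the neuroblasts of either library, which allows up to 1.15 CPM (the level unit used throughout, a gene's UMIs relative to all UMIs of the summed cells) in the WT and 1.79 CPM in the cKO cells at 3 counts, so the deletion could not be checked in these cells. Over all kept cells, Tmem173 had 132 UMIs in WT cells and 18 UMIs in cKO cells (log2 ratio -2.84, interval -3.64 to -2.12). The X-inactivation gene Xist was found in 0 of 570 WT and 283 of 287 cKO neuroblasts, and Y-linked genes in 343 WT and 0 cKO neuroblasts, so the libraries also differed in sex.

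The neuroblasts made up a smaller part of the cKO than of the WT library. They were 8.42% of the kept WT cells (interval 7.77 to 9.11) and 4.72% of the kept cKO cells (4.20 to 5.28), a difference of -3.70 percentage points (-4.57 to -2.84). The intervals of the libraries did not overlap, and the WT share was the higher one. Without the limit on mitochondrial UMIs the difference was -2.46 points. To set aside how many cortical cells each library caught, the share was also taken among non-cycling Dlx cells, which carry the Dlx sum of the rule without projection neuron or division genes. It was 38.3% (35.9 to 40.9) of 1487 such WT cells and 24.4% (21.9 to 26.9) of 1178 such cKO cells, a difference of -14.0 points (-17.5 to -10.4). Both shares depend on a threshold that counts UMIs of Sp8, Sp9 and Etv1. Over all kept cells these genes were lower in cKO (log2 ratio -1.19 for Sp8, -0.37 for Sp9 and -1.01 for Etv1). How far this moved cKO cells below the threshold was not tested.

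**Figure D1:**
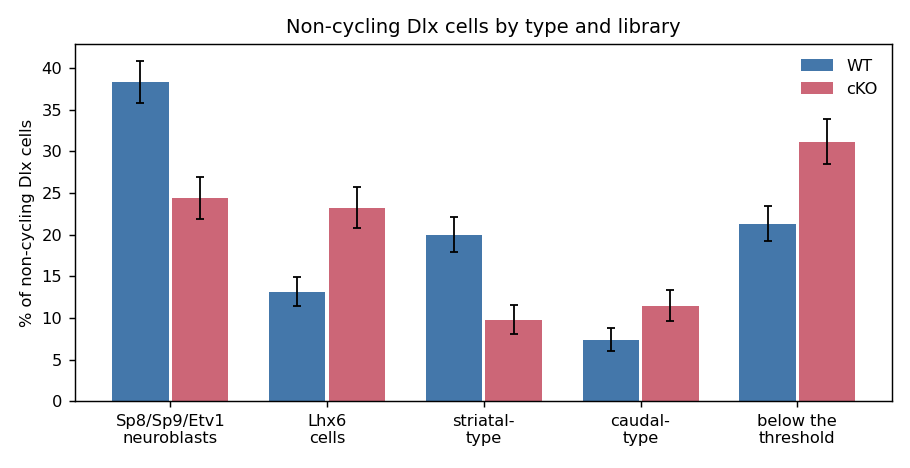
Share of each type among the non-cycling Dlx cells (percent, vertical axis) in the WT and cKO libraries, with Clopper-Pearson 95% intervals that cover counting error only; "below the threshold" means Dlx cells of no other type with fewer than 3 UMIs over Sp8, Sp9 and Etv1. The neuroblasts went from 38.3% in WT to 24.4% in cKO, the striatal-type cells also had the lower share in cKO, and the other 3 parts had the higher share there.

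The other Dlx cells did not move together. Lhx6 cells were 13.1% of the WT and 23.3% of the cKO non-cycling Dlx cells, and caudal-type cells (at least 3 UMIs over Adarb2, Prox1, Npas1 and Htr3a) were 7.33% and 11.5%. Striatal-type cells (at least 2 UMIs over Isl1, Ebf1, Tac1, Penk and Gucy1a3) had the lower share in cKO, like the neuroblasts, with 297 cells (19.97%, 17.97 to 22.1) in WT and 115 cells (9.76%, 8.13 to 11.6) in cKO. Dlx cells below the Sp8, Sp9 and Etv1 threshold were 21.3% and 31.2%. Lhx6 cells (at least 1 Lhx6 UMI) were assigned before the other types, so they can also hold striatal-type genes. In them Tac1 had 506 WT and 27 cKO UMIs, Gucy1a3 199 and 83, and Isl1 127 and 25. Penk had 69 and 15 there, and Ebf1 11 and 10. The part of this in the Lhx6 ratios given below was not tested. Striatal neurons do not belong to the cortex, so their number moves with how much ventral tissue a dissection holds, and its part in the neuroblast difference was not tested. Cycling Dlx cells, the dividing ventral progenitors, were also fewer in cKO, at 3.46% (3.04 to 3.92) of the kept WT and 1.88% (1.55 to 2.25) of the kept cKO cells.

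The 3 factors that chose the cells were not found together in every cell. Sp9 was in 549 of 570 WT neuroblasts (96.3%) and 282 of 287 cKO neuroblasts (98.3%). Sp8 was in 60.4% of WT and 44.3% of cKO neuroblasts, and Etv1 in 58.9% and 29.3%. Sp9 was thus the factor nearly every member carried, and Sp8 and Etv1 were each found in fewer cKO than WT members although the cKO cells were deeper. After each cell was thinned to 2000 UMIs, which left out 11 WT and 4 cKO neuroblasts, Sp8 was in 35.96% (31.97 to 40.1) and 20.8% (16.3 to 26.1), and Etv1 in 39.5% (35.5 to 43.7) and 14.1% (10.3 to 18.8). In microglia-like cells, which should lack these factors and show what free RNA gives, the thinned share for Etv1 was 5.56% of 54 WT cells and 6.45% of 31 cKO cells (interval up to 21.4), from unthinned medians of 10498 and 12470 UMIs. Since Etv1 counts were part of the rule, its share among members is a description and is not read against this background.

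Sorted by which factors had a UMI, 212 WT neuroblasts (37.2%, 33.2 to 41.3) and 47 cKO neuroblasts (16.4%, 12.3 to 21.2) held all of Sp8, Sp9 and Etv1. Sp9 alone was found in 114 WT (20%, 16.8 to 23.5) and 126 cKO neuroblasts (43.9%, 38.1 to 49.9). The WT members thus most often held the full set and the cKO members most often Sp9 alone. Sp8 with Sp9 was found in 115 and 76 cells and Sp9 with Etv1 in 108 and 33. Cells without Sp9 were few, at 21 in WT and 5 in cKO. Counted without Etv1, 501 of the 570 WT members and 271 of the 287 cKO members still reached 3 UMIs.

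**Figure D2:**
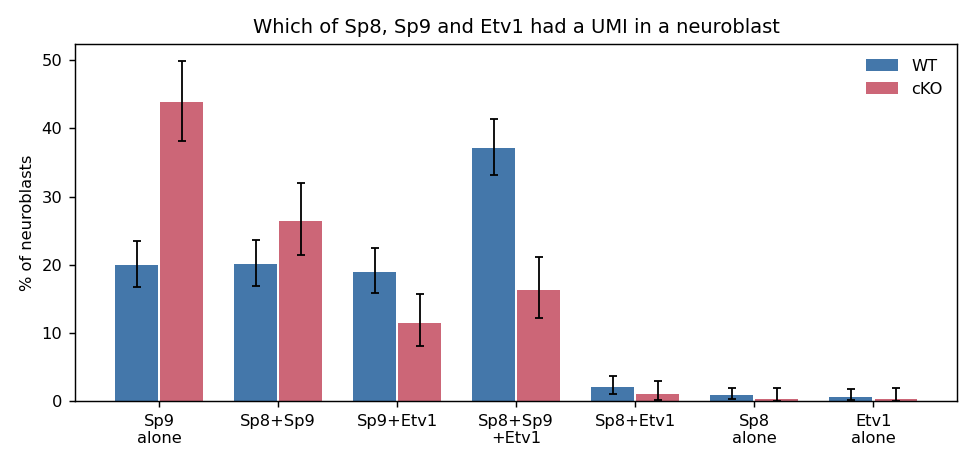
Share of neuroblasts (percent, vertical axis) by which of Sp8, Sp9 and Etv1 had at least 1 UMI, in WT (570 cells) and cKO (287 cells), with Clopper-Pearson 95% intervals that cover counting error only. Cells with all 3 factors are 37.2% in WT and 16.4% in cKO, and cells with Sp9 alone are 20% and 43.9%.

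The summed level of each chosen gene over the neuroblasts showed the same. Sp9 was at 825 CPM (791 to 861) in WT and 943 CPM (897 to 991) in cKO, a log2 ratio of cKO over WT of 0.19 (0.10 to 0.29). Sp8 was at 236 CPM in WT and 146 CPM in cKO (log2 -0.69, -0.91 to -0.47). Etv1 was at 268 CPM in WT and 89.8 CPM in cKO (log2 -1.58, -1.84 to -1.32). Sp9 was slightly higher, Sp8 lower and Etv1 lowest in cKO relative to WT. Sp8 and Sp9 were not confined to the neuroblasts. In WT, Sp9 had 2150 UMIs in the neuroblasts, 545 in Lhx6 cells and 568 in striatal-type cells. Sp8 had 614 UMIs in the WT neuroblasts and 87 in WT caudal-type cells. The lower Etv1 level was not particular to the neuroblasts, since the log2 ratio was -1.19 in Lhx6 cells, -1.84 in striatal-type cells, -1.97 in caudal-type cells and -0.85 in projection neurons. The lower Sp8 level was not particular to them either. Its log2 ratio was -1.99 in Lhx6 cells (30 and 10 UMIs), -1.57 in striatal-type cells (42 and 7) and -1.46 in caudal-type cells (87 and 38). Among the Dlx genes, Dlx1 (782 and 794 CPM, log2 0.02), Dlx2 (749.7 and 839 CPM, log2 0.16) and Dlx5 (370 and 357 CPM, log2 -0.05) were near equal. Dlx6os1 (also called Evf2), a long non-coding RNA of the Dlx5 and Dlx6 locus, was at 838 CPM in WT and 522 CPM in cKO (log2 -0.68, -0.80 to -0.57). It was lower in cKO in every other Dlx type too, by log2 -0.54 in cycling Dlx cells to -1.56 in striatal-type cells.

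Some genes changed little across the threshold and others more. A sum of exactly 3 UMIs over Sp8, Sp9 and Etv1, just inside, was held by 111 WT and 65 cKO cells, and a sum of 2, just outside, by 110 and 86 Dlx cells of no other type. Gad2, which encodes the GABA-synthesizing enzyme GAD65, was at 322 CPM just outside and 363 CPM just inside in WT, and at 514 and 621 CPM in cKO. Meis2, a homeobox factor of the lateral eminence lineages, was at 1604 and 1688 CPM in WT and at 931 and 966 CPM in cKO. Both genes were thus a little higher just inside than just outside in both libraries. Nr2f2, a factor of caudal lineages, was at 132 CPM just outside and 44.1 CPM just inside in WT, and at 135 and 148 CPM in cKO. Six3, a homeobox factor of striatal neurons, was at 112 and 67.2 CPM in WT and at 107 and 215 CPM in cKO. Six3 was thus lower just inside in WT and higher just inside in cKO. From a sum of 0 to a sum of 10 or more, Gad2 went from 216 to 512 CPM in WT and from 415 to 899 CPM in cKO. Foxp2, a forkhead factor, was at 329 CPM at a sum of 0 and 89.1 CPM at 10 or more in WT, and at 226 and 10.3 CPM in cKO. Tshz1, a zinc finger factor needed for olfactory bulb neuroblasts to leave the migratory stream, was at 391 and 305 CPM in WT and at 382 and 134 CPM in cKO. The median UMIs per cell also went up over these sums, from 3478 to 4925.5 in WT and from 3884 to 6508.5 in cKO, and the part of depth in these trends was not tested.

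Genes outside the rule set the neuroblasts apart from Lhx6, striatal-type and caudal-type cells. A gene was counted when its level, as log2(CPM + 10), was at least 2-fold higher than in all 3 types in both libraries. Of 4547 genes with at least 50 UMIs in the neuroblasts of each library, 16 were that much higher (0.352%), and of 2182 genes with at least 50 UMIs in each of the 3 types, 36 were that much lower (1.65%). With at least 1000 genes and at most 5% mitochondrial UMIs per cell, which left 145 neuroblasts, 2 genes in all passed in place of 52.

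The gene that stood furthest above the other types was Tiam2, an activator of the GTPase Rac1 in growth cones. It was at 267 CPM in WT and 291 CPM in cKO neuroblasts and at 18.01 to 63.0 CPM in the 3 other types, at least 1.95 higher on the log2(CPM + 10) scale. Ccnd2, which encodes the G1 cyclin D2, was at 1866 CPM in WT and 1709.9 CPM in cKO neuroblasts. It reached 532 CPM at most in the other 3 types and was higher still in cycling Dlx cells, at 2687 and 3342 CPM. A few other genes of the 15 named are known from cells that divide or have just left the cell cycle. Insm1, a zinc finger factor of cells leaving the cell cycle, was at 216 and 304 CPM in the neuroblasts against 39.2 to 87.4 CPM. Cdca7, a cell cycle gene, was at 141 and 116 CPM against 10.6 to 48.5 CPM. Ube2c, of the mitotic ubiquitin machinery, was at 34.6 and 79.1 CPM against 0.890 to 10.0 CPM, below the 963 and 701 CPM of the cycling Dlx cells. It was found in 46 of 570 WT and 50 of 287 cKO neuroblasts, and 17 cKO cells with at least 3 UMIs held 88 of its 133 cKO UMIs. These genes were picked for being higher, and the list of progenitor and Notch genes did not share this pattern. None of its 16 genes was at least 2-fold higher than in all 3 types, and their summed level was 1845 and 1712 CPM in the neuroblasts and 1856 and 1909 CPM in caudal-type cells, above the 1206 and 794 CPM of Lhx6 cells and the 1087 and 1175 CPM of striatal-type cells.

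Rnd3, an atypical small GTPase of migrating neurons, was at 233 and 255 CPM in WT and cKO neuroblasts against 46.3 to 105 CPM in the other types. Tox3, an HMG-box factor, was at 275 and 207 CPM against 16.9 to 104 CPM. Spon1, which encodes the secreted matrix protein F-spondin, was at 78.3 and 61.3 CPM against 10.7 to 18.6 CPM. The remaining named genes, in falling order of their smallest difference, were Abracl, Tmem2, Gm14964, Mfng, Myt1, H1f0 and Nudt4. Of these, Mfng (a Notch-modifying glycosyltransferase) and H1f0 (a linker histone) were lower in cKO than in WT neuroblasts, at 31.5 against 71.4 CPM and at 238 against 485 CPM, and in each library both were above all 3 types. Gm14964 (95.2 against 198 CPM), Abracl (431 against 615 CPM) and Myt1 (43.4 against 63.7 CPM) were lower in cKO too. Tmem2 and Nudt4 were higher there. Under the stricter cell filter just named, the smallest difference of Mfng was -0.70 and that of Myt1 -0.022.

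**Figure D3:**
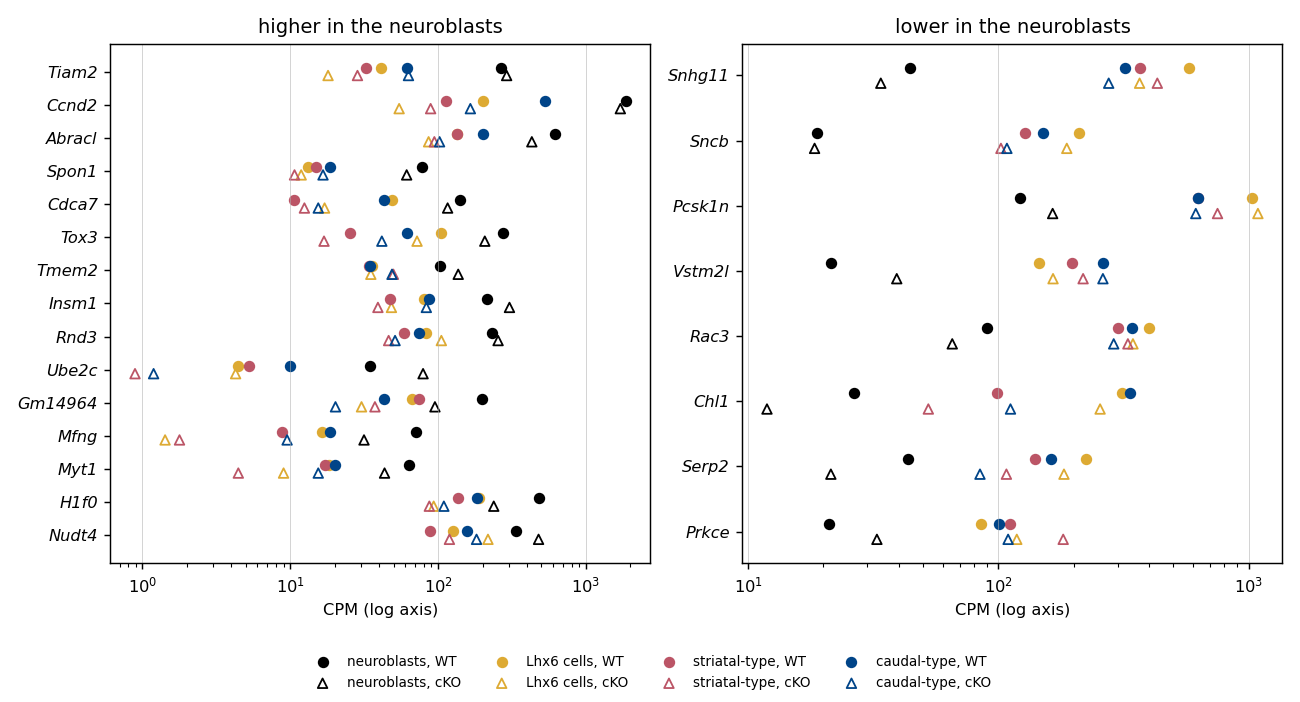
Level (CPM, log axis) of the 15 genes furthest above and 8 of the 10 furthest below the other Dlx types in both libraries, for neuroblasts (black), Lhx6 cells (yellow), striatal-type cells (red) and caudal-type cells (blue); filled circles are WT and open triangles cKO, each 1 library. In every row the black symbols of a library lie to one side of its coloured symbols, as the choice of the genes requires.

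Genes that were lower than in all 3 other types included genes of axons and synapses. Snhg11, a neuronal long non-coding RNA, was at 44.5 and 33.9 CPM in WT and cKO neuroblasts and at 276 to 580 CPM in the other types. Chl1, a cell adhesion molecule of growing axons, was at 26.5 and 11.9 CPM against 52.5 to 335 CPM. Sncb, which encodes a protein of the presynaptic terminal, was at 18.8 and 18.4 CPM against 102 to 210 CPM. Pcsk1n, Vstm2l, Rac3, Serp2 and Prkce were also among the 10 furthest below. Under the stricter cell filter, Sncb, Chl1 and Serp2 were no longer lower than in every type. Of the 16 genes in the list of neuronal maturation, 5 were at least 2-fold lower than in all 3 types in both libraries, among them Syt1, Rbfox3, Grin2b and Vsnl1, and none was that much higher. Over all genes the share that much lower was 1.65%, among genes with at least 50 UMIs in each other type, a minimum that Vsnl1 missed. Nrxn3, another gene of the list, was above all 3 types of its own library, at 1036 CPM against 386 to 979 CPM in WT and at 932 CPM against 285 to 878 CPM in cKO. The chloride exporter gene Slc12a5 (KCC2), which makes GABA inhibitory as neurons mature, was also lower than in all 3 types, with 9 UMIs in WT and 3 in cKO neuroblasts.

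To check the label, 20 genes of the olfactory bulb interneuron lineage outside the rule were followed. Vax1, a homeobox factor, was the only one at least 2-fold higher than in all 3 other Dlx types in both libraries, with 24.6 and 23.8 CPM in WT and cKO neuroblasts against 1.32 to 5.95 CPM. Over all genes that share was 0.352%, among genes with at least 50 UMIs in the neuroblasts of each library, a minimum that Vax1 missed with 64 WT and 40 cKO UMIs. Pax6, which specifies dopaminergic periglomerular cells, was higher than in each of the 3 types, at 92.9 and 63.1 CPM against 6.23 to 38.7 CPM. Tshz1 was at 330.1 and 216 CPM against 74.3 to 165 CPM, above each type of its own library. It was higher still in Dlx cells below the threshold, at 391 to 608 CPM in WT and 382 to 407 CPM in cKO over sums of 0 to 2. Tshz1 thus did not set the neuroblasts apart from those cells. Meis2, in contrast, was shared with striatal-type cells, at 1759 CPM in WT neuroblasts and 1546 CPM in WT striatal-type cells, and at 883 and 1131 CPM in cKO. Among genes of finished interneurons, some were at or near 0, with 2 WT and 0 cKO UMIs of Th (the rate-limiting enzyme of dopamine synthesis), 4 and 0 of Trh, and 12 and 0 of Scgn, while Calb2 and Synpr were not, with 306 and 399 UMIs in WT.

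Most genes of this lineage list were lower in cKO than in WT neuroblasts. Among all 6291 genes with at least 50 UMIs in the neuroblasts of either library, 284 (4.51%) were at least 2-fold higher and 705 (11.2%) at least 2-fold lower in cKO, with a median log2 ratio of 0.0068. The summed neuroblasts held 2605054 UMIs in WT and 1680819 in cKO. The minimum of 50 UMIs thus admits genes high in WT at a lower CPM than genes high in cKO. Its part in the unequal shares was not tested. Of the 13 list genes with at least 50 UMIs, 5 were at least 2-fold lower (Pbx3, Zic1, Prokr2, Synpr and Calb2), none was that much higher, and the median log2 ratio was -0.97. This was not particular to the neuroblasts. On the log2(CPM + 10) scale and for list genes with at least 10 UMIs, the median was -0.56 in the neuroblasts over 18 genes, -0.75 in Lhx6 cells over 15, -0.58 in striatal-type cells over 16, -0.47 in caudal-type cells over 12, and -0.07 in projection neurons over 16. The Lhx6 median carries the limit given above, that these cells held unequal counts of striatal-type genes.

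Among the factors of the list, Meis2 was at 1759 CPM (1708 to 1811) in WT and 883 CPM (839 to 929) in cKO neuroblasts (log2 -0.99, -1.08 to -0.91). Meis2 was also lower in cKO in Lhx6 cells (log2 -1.48) and projection neurons (log2 -0.64). Pbx3, a homeobox factor, was at 329.7 CPM in WT and 140 CPM in cKO neuroblasts (log2 -1.23, -1.45 to -1.02). Zic1, a zinc finger factor of the septal and bulb lineages, was at 137 CPM in WT and 22.6 CPM in cKO (log2 -2.60, -3.12 to -2.11), found in 94 of 570 and 12 of 287 cells. Its log2 ratio was -4.98 (-6.63 to -3.72) in Lhx6 cells, -1.27 (-7.15 to 3.00) in caudal-type cells and -0.30 in projection neurons. In striatal-type cells Zic1 had no cKO UMI (interval up to -3.39). Each of these 3 genes was the lower one in cKO by more than counting error. Tshz1 had a smaller difference, at 330.1 and 216 CPM (log2 -0.61, -0.79 to -0.43), while it was higher in cKO in caudal-type cells (log2 0.92) and near equal in Lhx6 cells (log2 0.02). Vax1 was near equal in both libraries (log2 -0.05, -0.65 to 0.55).

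Calb2, Synpr and Prokr2 were the other 3 of the 5 list genes at least 2-fold lower in cKO. Calb2, which encodes the calcium-binding protein calretinin of one periglomerular and granule class, was at 118 CPM in WT and 17.8 CPM in cKO neuroblasts (log2 -2.72, -3.31 to -2.17), from 66 and 15 cells. It was also lower in Lhx6 and striatal-type cells (log2 -2.30 and -2.35) and higher in projection neurons (log2 0.53). Synpr, which encodes the synaptic vesicle protein synaptoporin, was at 153 CPM in WT and 29.8 CPM in cKO (log2 -2.36, -2.82 to -1.94), beside log2 -0.98 in Lhx6, -0.69 in caudal-type and -0.19 in striatal-type cells. Prokr2, the receptor for prokineticin 2, which draws neuroblasts into the bulb, was at 61.4 and 15.5 CPM (log2 -1.99, -2.65 to -1.38), beside -2.36 in Lhx6 cells and -2.01 in projection neurons. Synpr thus had its lowest ratio in the neuroblasts, whereas Prokr2 and Calb2 were also at -2 or below in other types.

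Gsx2, a homeobox factor of lateral eminence progenitors, went the other way, and had 8 UMIs in WT and 31 UMIs in cKO neuroblasts (log2 2.59, 1.43 to 3.92), 20 of the 31 in 4 cells.

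**Figure D4:**
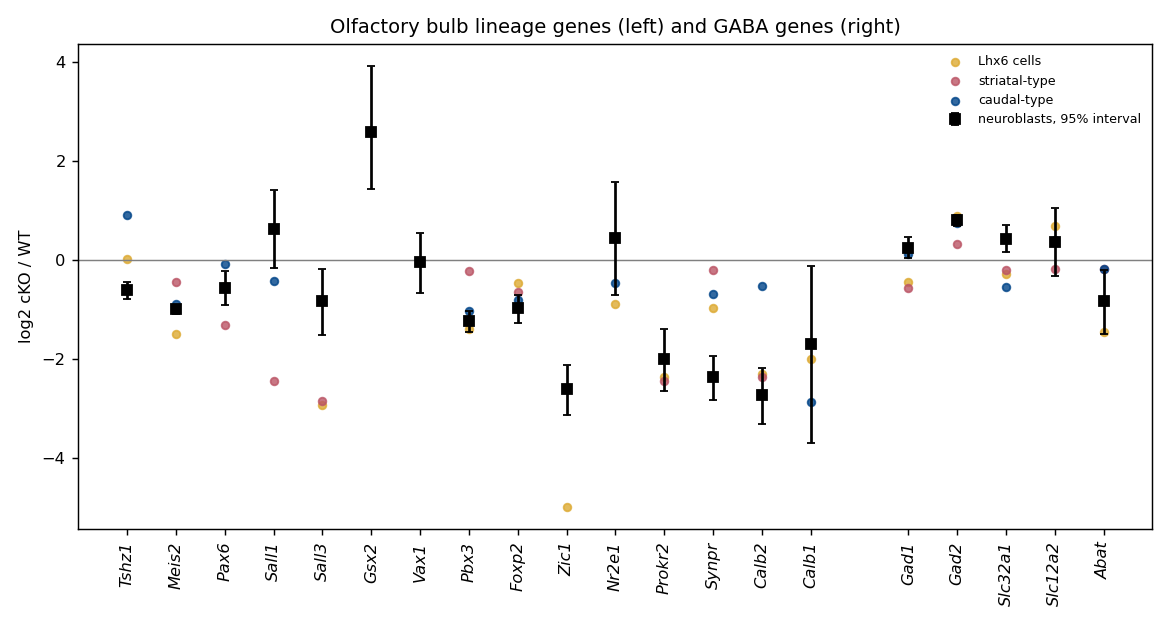
Ratio of cKO over WT (log2, vertical axis) for olfactory bulb lineage genes (left) and GABA genes (right) with at least 10 UMIs in the neuroblasts of 1 library and at least 1 in the other; black squares are the neuroblasts with 95% intervals that cover counting error only, coloured points the other Dlx types, left out where the counts were lower. Zic1, Synpr, Prokr2 and Calb2 lie near -2 or below and Gsx2 above 0, while Gad2 lies at 0.81.

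The genes of GABA synthesis and transport did not share this direction. Of the 5 with at least 50 UMIs, none was 2-fold higher or lower, and the median log2 ratio was 0.43. Gad2 was at 449 CPM (424 to 476) in WT and 785 CPM (744 to 829) in cKO neuroblasts (log2 0.81, 0.69 to 0.92). Slc32a1, the vesicular GABA transporter gene, was at 91.7 and 124 CPM (log2 0.43, 0.16 to 0.71), and Gad1, the gene of GAD67, at 174 and 207 CPM (log2 0.25, 0.05 to 0.46). In cells with Sp9 and no Sp8 or Etv1 the ratio of Gad1 was -0.27 (-0.65 to 0.12). Over all members these 3 were the higher ones in cKO, and Abat, which encodes the enzyme that breaks GABA down, was the lower one, at 30.7 and 17.3 CPM. Gad2 was also higher in cKO in Lhx6 cells (log2 0.89), caudal-type cells (0.75) and striatal-type cells (0.32). Gad2 was higher in the neuroblasts than in each of the 3 types in both libraries, by 0.68 to 1.23 on the log2(CPM + 10) scale.

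Among factors that act with the Dlx genes, none of the 4 with at least 50 UMIs passed 2-fold. Dlx6 was at 77.2 and 97.0 CPM (log2 0.33, 0.02 to 0.64).

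Of 18 genes of chain migration and guidance with at least 50 UMIs, 2 were at least 2-fold higher and 3 at least 2-fold lower in cKO, beside 4.51% and 11.2% of all genes, with a median log2 ratio of -0.15. Dcx, which encodes the microtubule protein doublecortin of migrating neuroblasts, was at 883 CPM in WT and 735 CPM in cKO (log2 -0.27). Ncam1, the carrier of the polysialic acid that lets neuroblasts slide in chains, was at 721 and 655 CPM. These general markers of migrating neuroblasts differed little, but the polysialyltransferase gene St8sia2 was at 63.3 CPM in WT and 165 CPM in cKO (log2 1.38, 1.10 to 1.67), beside 0.15 to 0.44 in the other 3 Dlx types. Vldlr, a reelin receptor gene, was at 37.2 and 76.2 CPM (log2 1.03), and the integrin gene Itgb1 at 56.0 and 111 CPM (log2 0.98).

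Robo2, a receptor for the Slit repellents that keep neuroblasts on course, was at 235 CPM (217 to 254) in WT and 60.7 CPM (49.5 to 73.7) in cKO neuroblasts (log2 -1.95, -2.27 to -1.65). Its ratio was -1.07 in Lhx6 cells, -0.87 in caudal-type cells and 0.30 in striatal-type cells, so the neuroblasts had the lowest of the 4 ratios. Erbb4, the neuregulin receptor gene, was at 66.4 and 24.4 CPM (log2 -1.44), and Dab1, the adaptor of reelin signalling, at 46.4 and 20.2 CPM (log2 -1.20).

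Of 12 genes of immature neurons, none was 2-fold higher and 3 were at least 2-fold lower in cKO neuroblasts, beside the same 4.51% and 11.2% of all genes, with a median log2 ratio of -0.44. The other lists are read against these shares too. Sox4 and Sox11, SoxC factors of newborn neurons, were the higher ones, at 4147 and 6610.5 CPM (log2 0.67) and at 3262 and 4129.5 CPM (log2 0.34). Stmn1 and Stmn2, which encode stathmins that destabilize microtubules, were at 7508 and 3934 CPM (log2 -0.93) and at 2634 and 1249 CPM (log2 -1.08). Igfbpl1, a marker of migrating newborn neurons, was at 1342 and 613 CPM (log2 -1.13), and Elavl4, a neuronal RNA-binding protein gene, at 253 and 70.8 CPM (log2 -1.84). The 2 SoxC factors were thus higher and the 2 stathmins lower in cKO, while the tubulin genes went both ways, with Tubb3 at 3694 and 2335 CPM and Tubb2b at 4087 and 4692 CPM. Elavl4 was lower in cKO in every type compared (log2 -1.42 to -2.37), whereas Igfbpl1 was near equal in caudal-type cells (log2 -0.20) and projection neurons (log2 0.15). Stmn1 and Tubb2b have near-identical copies elsewhere in the annotation, and how the authors' counting split such reads is not known. Sox4 overlaps Gm26735 on the other strand.

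In the maturation list, 1 of 11 genes with at least 50 UMIs was at least 2-fold lower in cKO and none higher, with a median of -0.46. That gene was Gria2, which encodes an AMPA receptor subunit, at 496 and 198 CPM (log2 -1.32). The median over list genes with at least 10 UMIs was -0.36 in the neuroblasts, beside -0.73 in Lhx6 cells, -0.71 in caudal-type cells, -0.58 in projection neurons and -0.29 in striatal-type cells on the log2(CPM + 10) scale. In the progenitor and Notch list, none of 10 genes passed 2-fold, with a median of -0.06. Sox2, which neuroblasts keep from their progenitors, was at 418 and 485 CPM, and the intermediate filament gene Vim at 301 and 300.4 CPM. Fabp7, a fatty acid binding protein gene of radial glia, was at 474 and 283 CPM (log2 -0.75, -0.90 to -0.59).

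The Fabp7 value rested on members that entered through Etv1. In WT, 69 neuroblasts reached 3 UMIs only with Etv1 counted, and they held Fabp7 at 2570 CPM (2388 to 2762) against 214 CPM (196 to 234) in the other 501, with 225 of their 740 UMIs in 1 cell. In cKO, 16 such cells held 1290.5 CPM, 105 of the 108 UMIs in 1 cell, against 229.8 CPM in the other 271. Slc1a3 and Apoe, genes of radial glia and astrocytes, were likewise higher in the Etv1-dependent WT cells, at 316 against 62.2 CPM and at 354 against 85.4 CPM. A small number of members entered by Etv1 thus carried glial transcripts. Without Etv1 in the rule, the log2 ratio of Fabp7 between the libraries was 0.10 in place of -0.75, and that of Slc1a3 0.025 in place of -0.33.

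Markers of other cell types were low but not equal between the libraries. The 6 microglia genes summed to 164 UMIs in WT, 139 and 17 of them in 2 cells, and to 4 UMIs in cKO, where C1qa, Csf1r and Tyrobp were at 0. The 4 oligodendrocyte precursor genes gave 141 UMIs in 27 WT cells and 9 UMIs in 6 cKO cells. Erythroid genes gave 5137 UMIs in WT, 5096 of them in 1 cell, and 5 in cKO. Much of these WT sums thus came from few cells, but not all of it. Without the highest cell of each library, microglia genes gave 25 WT and 3 cKO UMIs, and oligodendrocyte precursor genes 100 and 5. Erythroid genes then gave 41 and 4 UMIs, and they were found in 7.37% (5.36 to 9.83) of WT and 1.74% (0.57 to 4.02) of cKO members. Endothelial genes (9 and 7 UMIs) and ependymal genes (8 and 5 UMIs) were close to 0 in both, and astrocyte genes gave 307 and 162 UMIs. Without the 10 WT cells that held at least 5 UMIs of a list other than the astrocyte list (no cKO cell did), 989 genes passed 2-fold between the libraries, the same number as with them, and Olig2 went from a log2 ratio of -1.48 to 0.43.

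Factors of other ganglionic eminence lineages, outside the rule, were mostly far below the type they mark. Among the 8 medial genes with at least 50 UMIs, 1 was at least 2-fold higher in cKO and 2 at least 2-fold lower. Npy and Sst, peptide genes of Lhx6 interneurons, were at 44.9 and 119 CPM and at 34.6 and 49.4 CPM in WT and cKO neuroblasts, against 1613 to 3048 CPM and 1104 to 3357 CPM in Lhx6 cells. These counts came from very few cells. The highest WT and cKO cell held 54 of the 90 and 73 of the 83 Sst UMIs, and 58 of the 117 and 140 of the 200 Npy UMIs. Without those cells the log2 ratio of Npy was 0.66 in place of 1.41. Among the 5 caudal genes with at least 50 UMIs, 2 were at least 2-fold lower in cKO (Cnr1 and Calb2). Nr2f1 and Nr2f2, the COUP-TF genes of caudal lineages, were the higher ones in cKO, at 212 and 335 CPM (log2 0.66) and at 43.4 and 83.3 CPM (log2 0.94). Of the 10 projection neuron genes outside the rule, Bhlhe22 alone had at least 50 UMIs, at 26.9 and 13.1 CPM.

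The striatal list had 1 gene at least 2-fold higher in cKO among 4 with at least 50 UMIs. Foxp1, a forkhead factor of striatal projection neurons, was at 74.1 CPM (64.0 to 85.3) in WT and 274 CPM (249 to 300) in cKO neuroblasts (log2 1.89, 1.64 to 2.13). At least 3 Foxp1 UMIs were found in 8 of 570 WT neuroblasts (1.40%, 0.61 to 2.75) and 23 of 287 cKO neuroblasts (8.01%, 5.15 to 11.8). Those 23 cells held 395 of the 460 cKO Foxp1 UMIs. Of the 23, 22 had Sp9 without Sp8 or Etv1, and 10 also had at least 3 UMIs of Six3, a homeobox factor that, like Sp9, is needed for striatal indirect pathway neurons. Outside the rule, only Foxp1, which picked these cells, and Six3 were taken for them, so the olfactory bulb label is not established for them. At least 3 UMIs of Foxp1 or of Six3 were held by 27 WT members (21 with Sp9 alone) and 37 cKO members (35 with Sp9 alone), and the same limit holds for these. Most of them are described with the other cells that held Sp9 alone. The share of cells with at least 3 Foxp1 UMIs differed between the libraries. It moves with the Foxp1 value by construction, since Foxp1 UMIs pick these cells.

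Cells with Sp9 alone differed from cells with Sp8 or Etv1 in genes the rule did not use. A comparison of Etv1-only cells had been planned, but they were 4 in WT and 1 in cKO, so the comparison of 240 cells with Sp9 alone with 617 cells with any Sp8 or Etv1 was chosen after the data were seen. Six3 was at 302 CPM in WT and 262 CPM in cKO cells with Sp9 alone, and at 6.73 and 20.04 CPM in the others. Most of these UMIs, 159 of 173 in WT and 192 of 211 in cKO, were in 20 WT and 24 cKO cells with at least 3 each, of which 18 and 22 had Sp9 alone, so most cells with Sp9 alone held little or no Six3. Foxp2 was at 367 and 137 CPM against 112 and 42.2 CPM, and Tle4, a Groucho corepressor, at 116 and 77.8 CPM against 14.4 and 16.9 CPM. Zfhx3, a homeodomain factor of striatal and other late-born neurons, was at 133 and 90.1 CPM against 44.7 and 29.5 CPM. These factors were the higher ones with Sp9 alone in both libraries. Pcp4 and Enc1 had the same direction, and Sst and Npy had it from the few cells described above.

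Genes higher in cells with Sp8 or Etv1 included several of those that set the neuroblasts apart as a whole. Tiam2 was at 295 CPM in WT and 391 CPM in cKO cells with Sp8 or Etv1, and at 154 and 161 CPM in cells with Sp9 alone. Tox3 was at 306 and 271 CPM against 154 and 124 CPM. Zic1 was at 158 and 31.6 CPM against 53.3 and 10.9 CPM. Fam171b, Mob3b, Racgap1, Slc1a3 and Bcan were also higher with Sp8 or Etv1 in both libraries. For Slc1a3, the group with Sp8 or Etv1 includes the Etv1-dependent members that carried glial transcripts. Median depths were close, at 4336.5 and 5320.5 UMIs with Sp9 alone and 4190.5 and 5412 UMIs with Sp8 or Etv1 in WT and cKO.

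**Figure D5:**
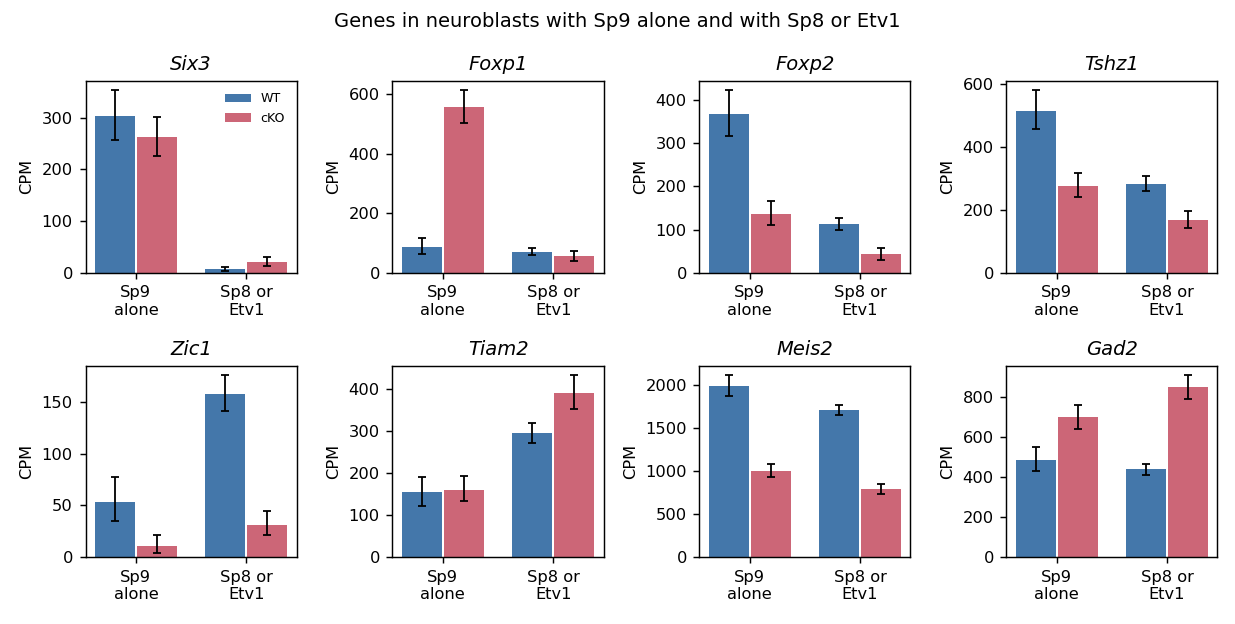
Level (CPM, vertical axes from 0) of 8 genes in neuroblasts with Sp9 alone (114 WT and 126 cKO cells) and with any Sp8 or Etv1 (456 and 161 cells), with exact Poisson 95% intervals that cover counting error only. Six3 is higher with Sp9 alone in both libraries and Foxp1 reaches 557 CPM in cKO cells with Sp9 alone, whereas Meis2, Tshz1, Foxp2 and Zic1 are lower and Gad2 higher in cKO in both groups of cells.

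Since the cKO library held more cells with Sp9 alone, the differences between the libraries were also taken within each kind of cell. The median log2 ratio over all genes with at least 50 UMIs was 0.15 in cells with Sp9 alone and -0.023 in cells with Sp8 or Etv1. Meis2 was lower in cKO in both, at 1988 and 1001 CPM with Sp9 alone and at 1701 and 792 CPM with Sp8 or Etv1. Pbx3 was lower in both (log2 -1.27 and -1.49), as were Synpr (-2.12 and -2.23), Zic1 (-2.29 and -2.32), Calb2 (-3.34 and -2.28), Foxp2 (-1.43 and -1.41), Tshz1 (-0.90 and -0.75) and Robo2 (-1.26 and -2.04). Gad2 was higher in cKO in both, at 487 and 700.3 CPM with Sp9 alone and at 439.5 and 851 CPM with Sp8 or Etv1, and St8sia2 likewise (log2 1.33 and 1.34). These differences were thus present in both kinds of cell. Foxp1, in contrast, was at 87.5 and 557 CPM with Sp9 alone (log2 2.67, 2.23 to 3.14) and at 70.7 and 54.8 CPM with Sp8 or Etv1 (log2 -0.37, -0.85 to 0.10). Pax6 was at 81.8 and 24.6 CPM with Sp9 alone (log2 -1.74, -2.62 to -0.91) and at 95.7 and 92.8 CPM with Sp8 or Etv1 (log2 -0.04, -0.42 to 0.32). Gad1 had a ratio of -0.27 (-0.65 to 0.12) with Sp9 alone and 0.51 (0.26 to 0.76) with Sp8 or Etv1, and Six3 one of -0.21 (-0.52 to 0.11) and 1.57 (0.50 to 2.68). Gad2, higher in cKO in both, had ratios of 0.52 (0.30 to 0.75) and 0.95 (0.81 to 1.09). For these 5 genes, among others, the intervals of the 2 kinds of cell did not overlap.

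The genes with the largest differences between the libraries mostly had the same direction in the other cell types. Gm8730, annotated as a copy of the ribosomal protein gene Rplp0, was at 33.0 CPM in WT and 798 CPM in cKO neuroblasts (log2 4.60), beside 4.56 to 4.95 in the 4 other types compared. Dynll1, a dynein light chain gene, was at 957 CPM in WT and 106 CPM in cKO (log2 -3.17, -3.40 to -2.96), beside -1.75 to -3.32 elsewhere. Ezh2, the methyltransferase of Polycomb complex 2, was at 246 and 35.1 CPM (log2 -2.81), beside -2.31 to -2.45. Trit1, 1700124L16Rik, Rlf and Arrdc4 among the higher genes and Coa3, Mrpl14, N6amt2, Hist3h2a and Tmem176b among the lower genes also had the same direction in all 4 other types. BC004004, higher in all 4 as well, shares sequence with copies of Rpl21. These differences were thus shared by neuroblasts, other Dlx types and projection neurons.

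Other genes among the 20 named had ratios that varied between the types. Khdrbs3, an RNA-binding splicing regulator gene, was at 458 CPM (432 to 484) in WT and 89.2 CPM (75.5 to 105) in cKO (log2 -2.36, -2.61 to -2.11). Its ratio was -0.70 in Lhx6, -1.16 in striatal-type and -1.70 in caudal-type cells. Scrn3 had 9 UMIs in WT and 86 UMIs in cKO neuroblasts, with ratios above 2 in the other Dlx types and -0.53 in projection neurons, but it overlaps Cir1 on the other strand, as Sp9 does. Mt1, which encodes metallothionein 1, was at 47.6 and 162 CPM (log2 1.77), beside -0.55 in Lhx6, 0.07 in striatal-type and 2.54 in caudal-type cells. Id3, an inhibitor of proneural factors, had 18 UMIs in 15 WT cells and 96 UMIs in 10 cKO cells, 54 of them in 1 cell, and its log2 ratio was 3.05 with and 2.22 without the highest cell of each library. Id3 and Foxp1 were thus set by few cells, whereas Khdrbs3 was found in 441 of 570 WT and 102 of 287 cKO cells.

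The pathway of the deleted gene was hardly detected beyond its shared signalling parts. Of 13 genes, 5 had at least 50 UMIs and none of these passed 2-fold, with a median log2 ratio of 0.47. The kinase gene Tbk1, which acts just below STING, had 22 WT and 27 cKO UMIs, and the sensor gene Mb21d1 (cGAS) had 1 and 0. Irf3, the transcription factor that TBK1 activates, had 30 WT and 3 cKO UMIs (11.5 and 1.79 CPM), beside a log2 ratio of -1.91 in projection neurons. Nfkbia, an inhibitor and target of NF-kB, was at 46.1 and 63.7 CPM. The homeobox gene Alx4 had 0 and 1 UMI, so its level was not measurable here. In the list of immediate early and stress genes, 1 of 8 genes was at least 2-fold higher (Arrdc4) and 2 at least 2-fold lower (Junb and Zbtb16), with a median of -0.13. Without the 10 WT cells that held other types' markers, Junb was no longer 2-fold lower (54 WT and 26 cKO UMIs, log2 -0.48, -1.21 to 0.22).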

How the data were processed

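Single-cell suspensions were profiled with 10x Genomics kits. The authors deposited UMI counts per gene and barcode for each library, and the submitters' notes name Cell Ranger 2, STAR, Seurat and mm9, whereas the matrix header names 3.0.1. The strand setting of the counting is not given in the sources used here. The deposited matrix of both libraries combined was used as an alternative, and no per-sample column was unmapped.

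Counts were used as deposited. Cells with at least 500 genes and at most 10% mitochondrial UMIs were kept. UMIs of all cells of a type were summed per library and divided by the total (CPM), and 10 CPM were added where stated. Between the libraries a gene was counted past 2-fold on the plain CPM ratio, with at least 50 UMIs in either library. No test was run, since each group is 1 library. The members and gene lists were chosen with earlier results of these data known.

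Named genes were those of the rule, of the lists, the 15 highest and 10 lowest against the 3 other Dlx types, the 10 highest and 10 lowest of cKO over WT with Poisson intervals that do not overlap (mitochondrial, haemoglobin and sex-linked genes left out), and those of the comparison within the neuroblasts. Genes named there by their smallest difference over both libraries needed at least 30 UMIs in the higher kind of cell. Some genes that this rule names are not reported here. Foxp1, Six3, Fabp7 and the cells that carried them were singled out after their values were seen.

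Scrublet (scanpy 1.11.5) called 165 of 6766 WT cells doublets (7 neuroblasts) and 0 of 6080 cKO cells, so its automatic threshold had not worked for the cKO library. At the WT threshold it called 106 cKO cells (2 neuroblasts). Doublets were kept in the values given and left out as an alternative. Intervals were computed with scipy 1.17.1 in Python 3.11.15 and TMM factors with edgeR 4.0.16 in R 4.3.3. The ratio step was tested on simulated data. All 142 named genes were found by identifier in the GENCODE M21 annotation, whose build differs from mm9, so no coordinates are given. Of them, 36 have exons that overlap a gene on the other strand, and 17 have transcripts that share at least 300 bases at 95% identity with another gene (BLAST 2.17.0). Alternatives covered the cell filter, doublets, depth, the rule's threshold and genes, the scaling, the matrix and the filter on low counts.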

Additional observations from a re-analysis of the deposited data

How the results depend on the processing

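The lower share of neuroblasts in cKO kept its direction under all 11 alternatives for each denominator. Each alternative still chose cells by Sp8 and Sp9 UMIs, and most by Etv1 UMIs too. They therefore cannot show how far the share rests on the levels of these genes. Of kept cells the difference was -2.46 points without a mitochondrial limit and -2.56 with at least 5 UMIs of Sp8, Sp9 and Etv1, in place of -3.70, and otherwise -2.95 to -4.09. Of non-cycling Dlx cells it was -20.3 with at least 1000 genes and at most 5% mitochondrial UMIs and -9.86 with at least 5 UMIs, in place of -14.0. Genes past 2-fold between the libraries numbered 989, but 198 under the stricter cell filter (which left 145 neuroblasts), 336 in cells with Sp9 alone (52.1% of them higher in cKO, against 28.7%), 1746 with at least 20 UMIs and 203 with at least 200. Genes past 2-fold against the other Dlx types numbered 52, but 2 under the stricter filter, 17 after thinning to 3000 UMIs, 87 with at least 20 UMIs and 18 with at least 200. In cells with Sp9 alone the cKO library had the larger total, 732572 UMIs against 525652 in WT, unlike over all members. These filters change how many genes and cells enter, and no other cause was tested.

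Of 1150 single-gene values between the libraries, 1017 stayed within the interval of the value given, 119 moved beyond it with the same direction or from an interval that spans 0, and 14 reversed. Under the stricter filter 48 of 87 genes moved, with Sp9 alone 29 of 84 and with Sp8 or Etv1 26 of 89. Among cells with Sp9 alone, Sp9 was at -0.021, Gad1 at -0.27, Six3 at -0.21, Sst at -0.051 and Olig2 at 1.52. Foxp1 was at -0.37 in cells with Sp8 or Etv1 and -0.63 without cells of at least 3 Foxp1 or Six3 UMIs. The cells left out for the value of -0.63 held 30 of 193 WT and 399 of 460 cKO Foxp1 UMIs, so it follows from that choice. Under the stricter filter Pax6 was at 0.072 and Slc1a3 at 0.54. Without Etv1 in the rule Fabp7 was at 0.10 and Slc1a3 at 0.025. Olig2 was at 0.43 without cells of other types' markers, and Sst at -1.54 in cells with Sp8 or Etv1 and -1.22 without the highest cells. Against the other Dlx types, 27 of 207 values moved (12 of 23 under the stricter filter) and 5 reversed, all under the stricter filter: Mfng -0.70, Myt1 -0.022, Sncb 0.16, Chl1 0.94 and Serp2 0.69. The cause was not tested.

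The splits by Sp8 and Etv1, the cells without Foxp1 or Six3, without other types' markers, without the highest cells and the doublet call at the WT threshold were chosen after seeing the data. No paired analysis was possible because each group has 1 library. With 1 library a group the spread between animals is unknown, and at medians of 4225 and 5352 UMIs a cell can lack a UMI of Sp8 or Etv1 that it expresses.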
